A study of Homo sapiens with 6 samples.

Results

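IL-4 and its target genes define the alternatively activated, or M2, state of macrophages, and 7 genes of that pathway were followed here through their H3K27ac peaks. H3K27ac is an acetyl mark on histone H3 that is found at active promoters and enhancers. IL-4 binds a receptor whose alpha chain is IL4R, Janus kinases at the receptor phosphorylate STAT6, and STAT6 dimers move to the nucleus and bind DNA near their targets. TGM2, ALOX15, FCER2 and CD209 are human targets of this route in monocytes and macrophages. ARG1 is the classical target in mouse macrophages, while the human gene is best known from liver and granulocytes.

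The members are the peaks that touch 1 of 7 windows of the hg19 genome, each drawn around 1 gene. Peaks were taken into a window by position alone, but the genes and lists were chosen with earlier results of these data known. The windows span 430 kb and held 41 of the 56420 peaks of the M2 list and 23 of the 31444 peaks of the THP-1 list. M2 macrophages, labelled as a line called M2, were set against THP-1 cells, a leukaemia line labelled as human monocytes. Both were grown in RPMI medium with 10% serum. The labels name no IL-4 treatment and do not say how the M2 cells were obtained. For H3K27ac there was 1 library per cell type, so no difference has a replicate check and no p-value is given. The series has 6 libraries, and those of YY1 and of input DNA were not used here.

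Depth was read from the lists themselves. The number of DNA fragments over a peak's summit was recovered from its fold enrichment and p-value. Every window peak gave a single whole number of fragments, from 15 to 241 in M2 cells and from 14 to 114 in THP-1 cells. A summit level is this pileup, scaled as in peak calling, divided by the lowest background of its list. The local background is given over the same lowest value. The fold enrichment of a peak is the authors' value and depends on the background used in calling its list, so folds of the M2 and THP-1 lists are given as descriptions and not compared. The processing notes give no settings, so whether that background came from input DNA is not known. No gene positions of hg19 were at hand, so no peak is assigned to a promoter, exon or intron, and a window can hold sequence of its gene's neighbours. In RefSeq's gene order (GRCh38.p14) NAB2 and LRP1 flank STAT6, NSMCE1 and IL21R flank IL4R, and RPRD1B and KIAA1755 flank TGM2. TRAPPC5 and CLEC4G flank FCER2, CLEC4G and CLEC4M flank CD209, SMTNL2 and PELP1 flank ALOX15, and AKAP7 and MED23 flank ARG1.

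M2 cells had more sequence under H3K27ac peaks than THP-1 cells in the 6 windows that held any peak, and in the lists as deposited the contrast was greatest at STAT6 and CD209. Over all windows 43.15 kb lay under M2 peaks and 16.71 kb under THP-1 peaks. The ratio of 2.58 compares with 2.19 over the whole lists. M2 peaks covered 10.0% of the window sequence and THP-1 peaks 3.89%. M2 coverage was at least 2 times that of THP-1 in 4 of the 6 windows with a peak (STAT6, CD209, TGM2 and ALOX15), and THP-1 coverage was at least 2 times that of M2 in 0. Among all 60 kb tiles of the genome with a peak, 62.2% were past that fold toward M2 and 10.5% toward THP-1, so the windows stood near the genome at large. The 41 M2 and 23 THP-1 peaks were a ratio of 1.78, against 1.79 over the lists. In lists of 31444 peaks each, kept by -log10 q, both cell types had 23 window peaks and the covered ratio was 2.02. The ratio over the whole lists was not computed at that setting.

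**Figure D1:**
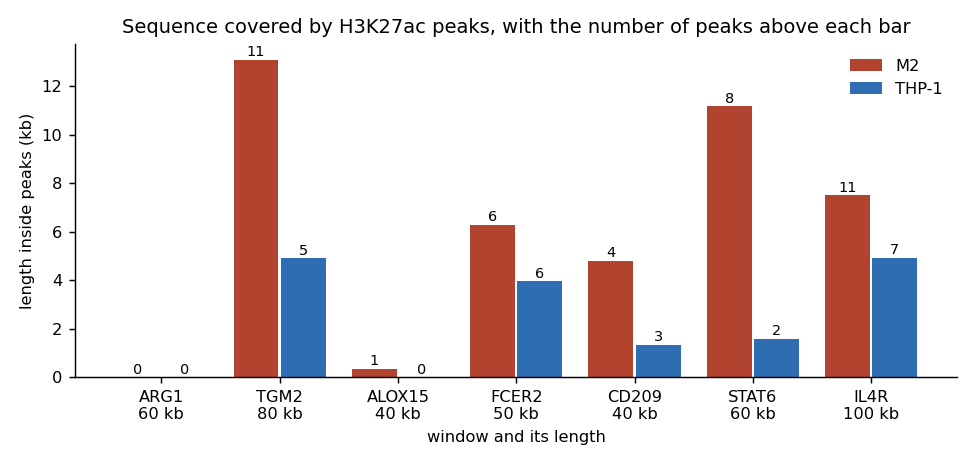
Kilobases inside H3K27ac peaks in each window, M2 left and THP-1 right, with the number of peaks above each bar. The STAT6 window holds 8 M2 peaks over 11.16 kb beside 2 THP-1 peaks over 1.585 kb, while the ARG1 window is empty in both lists.

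In the lists as deposited the shares of window peaks found in 1 list only were below those of all peaks, but too few peaks were counted to tell them apart. Of the 41 M2 peaks 21 overlapped no THP-1 peak, which is 51.2% (exact 95% interval 35.1 to 67.1, counting error only). The share over all M2 peaks was 63.0%. Of the 23 THP-1 peaks 2 overlapped no M2 peak, 8.70% (1.07 to 28.0), against 24.7% of all THP-1 peaks. Both intervals hold the share of the whole list, which does not show the shares to be equal. Among peaks with a -log10 q of 10 or more the M2-only share was 75.0% in the windows and 74.2% of all, and with an overlap of at least 50% asked for, 68.3% in the windows and 74.5% of all. In lists of equal length the M2-only share in the windows was 39.1% and the THP-1-only share 26.1%. The shares of all peaks were not computed there. The M2-only peaks were unevenly placed, with 8 of 11 in the TGM2 window, 6 of 8 at STAT6, 2 of 4 at CD209, 4 of 11 at IL4R, 1 of 1 at ALOX15 and 0 of 6 at FCER2. Some lay close to a THP-1 peak, such as 426 and 1016 bp away at STAT6 and 438 bp at IL4R. These may not be separate sites. Of the 21, 12 lay more than 5 kb from any THP-1 peak. M2-only peaks had a median width of 580 bp and a median fold enrichment of 4.92, and the 20 shared M2 peaks 967.5 bp and 6.38. Over the whole M2 list the medians were 591 bp and 5.00 for M2-only peaks, and 1197 bp and 6.33 for shared ones. The difference is thus not particular to the windows.

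**Figure D2:**
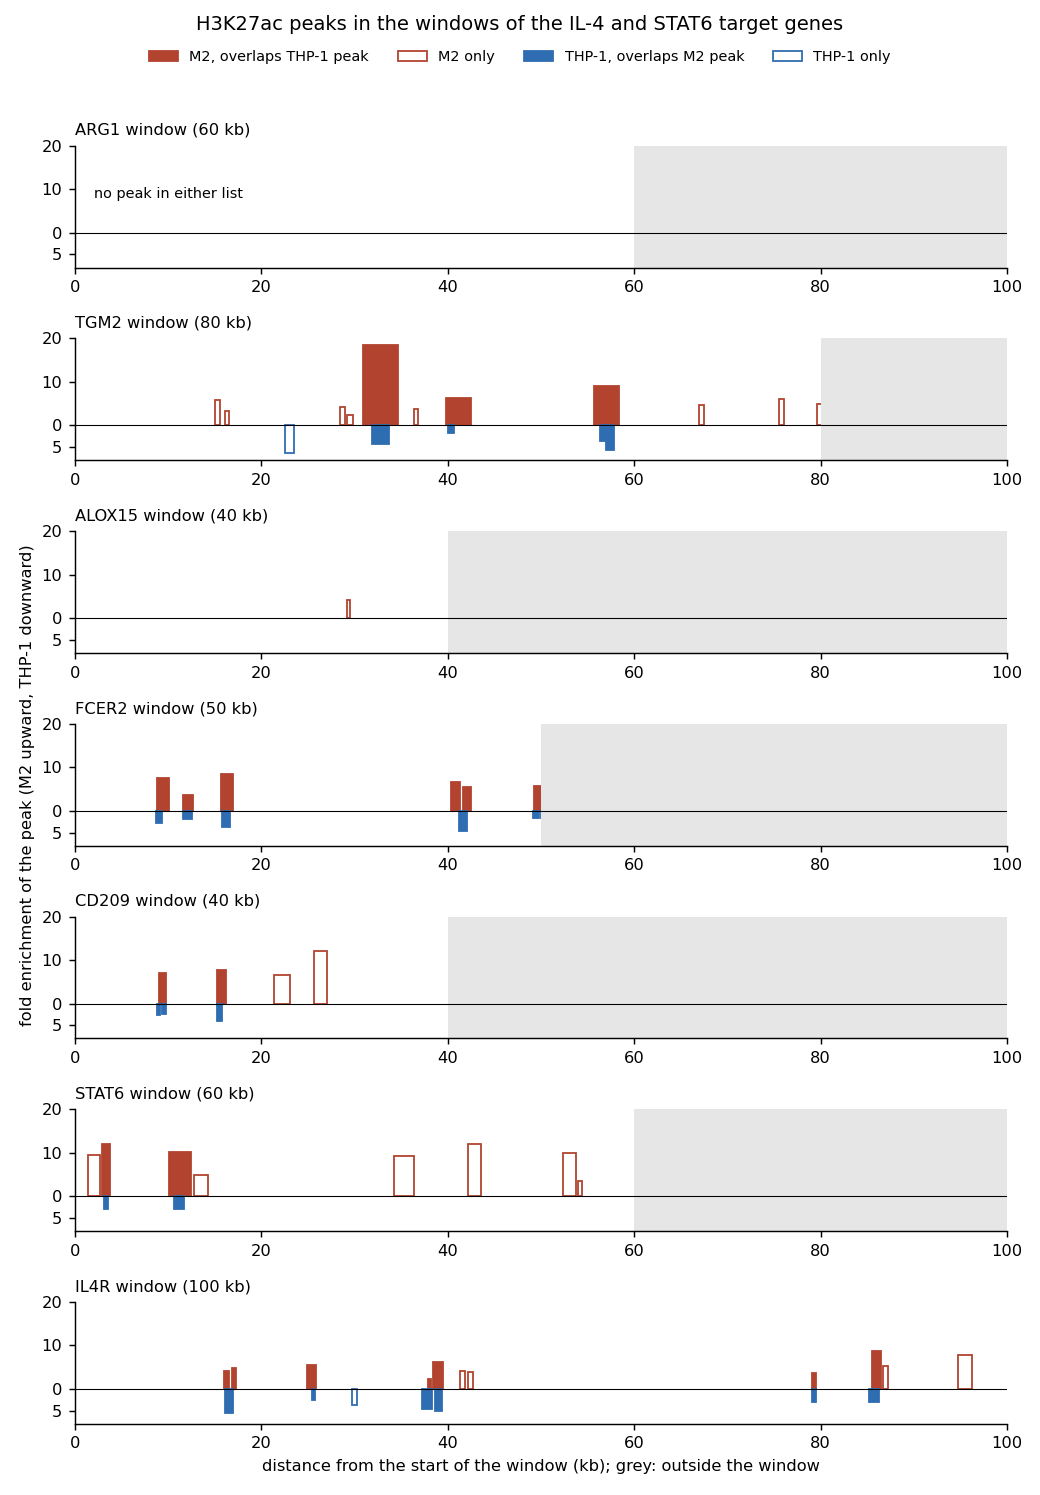
Each panel shows 1 window, with distance from its start in kb on the x axis and the fold enrichment of each peak on the y axis, M2 upward and THP-1 downward, bars as wide as the peaks, with heights to be read within a list. Open bars overlap no peak of the other list, and they are the ones standing in the later part of the CD209 and STAT6 windows.

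Promoter sequences of the members were searched for the letters that STAT proteins are known to bind. STAT dimers bind TTC and GAA around a short spacer, and STAT6 is known to accept a spacer of 4 bases, TTCNNNNGAA, as well as the 3-base form shared by other STATs, TTCNNNGAA. Both patterns read the same on either strand, and a match is only a run of letters. RefSeq promoters of GRCh38.p14, 250 bases before to 50 after a gene start, were matched for 5 of the 7 members, with 6 promoters in all. FCER2 is the member with matches, 1 at each of its promoters. Over all 35116 promoters 6.44% held the 4-base form, 7.66% the 3-base form and 13.5% either. The FCER2 gene on chromosome 19 has an outer promoter, whose match spans the start, and an inner promoter, whose match begins at position -185 relative to the start. The 30 bases around the outer match and the 250 bases before the inner start are shown, with the match in capitals. The CD209 and STAT6 promoters, from the windows with the highest covered ratios in the lists as deposited, are shown for comparison and hold neither pattern.
FCER2 outer site: tggctctactTTCAGAAGAAagtgtctctc
FCER2 inner promoter: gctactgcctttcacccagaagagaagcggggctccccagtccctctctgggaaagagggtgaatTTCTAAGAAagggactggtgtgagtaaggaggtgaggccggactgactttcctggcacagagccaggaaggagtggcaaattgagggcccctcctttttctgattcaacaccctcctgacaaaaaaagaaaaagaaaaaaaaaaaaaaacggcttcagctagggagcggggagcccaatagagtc
CD209 promoter: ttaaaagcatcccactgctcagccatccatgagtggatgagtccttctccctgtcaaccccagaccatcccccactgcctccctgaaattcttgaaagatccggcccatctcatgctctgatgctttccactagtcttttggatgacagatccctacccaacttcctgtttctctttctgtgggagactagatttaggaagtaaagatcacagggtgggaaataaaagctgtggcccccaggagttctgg
STAT6 promoter: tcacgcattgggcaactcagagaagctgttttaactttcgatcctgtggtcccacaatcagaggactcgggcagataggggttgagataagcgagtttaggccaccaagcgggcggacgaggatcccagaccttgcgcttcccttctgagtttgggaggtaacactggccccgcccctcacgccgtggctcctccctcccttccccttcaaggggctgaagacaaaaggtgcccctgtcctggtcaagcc

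Among 30 further genes of the pathway (kinases, receptor chains, feedback inhibitors, chemokines and other targets), 27 had promoters in the same table, 43 in all, and 8 of those promoters held either pattern (18.6%, against 13.5% of all). They belong to 7 genes. CISH, a feedback inhibitor of cytokine receptors, had 4 matches of the 3-base form. IL4 itself and CD200R1 had 1 of the 4-base form, CCL13, CCL24 and CHI3L2 1 of the 3-base form, and RETNLB 1 of each. The CHI3L2 match is a single site held by 2 overlapping promoters of the gene. H3K27ac at these genes was not analysed here, because their hg19 positions were not at hand.

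The IL4R window held H3K27ac peaks in both cell types. IL4R is the alpha chain through which IL-4 and IL-13 are sensed. Its window, chromosome 16 at 27300000 to 27400000, had 7.496 kb under 11 M2 peaks and 4.925 kb under 7 THP-1 peaks, 1.52 times as much in M2 cells. In lists of equal length the M2 peaks numbered 5 and the ratio was 0.989, so the small M2 excess did not hold there, while peaks with a -log10 q of 10 or more gave 3.45. The strongest contrast lay at 27324940 to 27325808 in M2 cells, with 200 fragments, and at 27325387 to 27325790 in THP-1 cells, with 53 fragments. Set against the lowest background of each list, the summit level there was 86.9 in M2 and 30.03 in THP-1 cells, a ratio of 2.89 and the highest among the 13 sites with 1 peak from each list. This site was chosen for that ratio after its values were seen. The M2 peak of highest fold enrichment, 27385560 to 27386442 (8.80-fold), overlapped a THP-1 peak at 27385207 to 27386230 (3.10-fold), and 51 M2 and 50 THP-1 fragments lay over the summits.

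The widest M2 peak of the IL4R window was also its M2-only peak of highest fold. It lay at 27394755 to 27396313, was 1559 bp wide and 7.79-fold enriched, with 26 fragments, 8524 bp from any THP-1 peak. An M2 peak of only 312 bp, with 57 fragments at 2.33-fold, met the widest THP-1 peak, 27337232 to 27338284, which had 60 fragments at 4.62-fold. A pair of narrow M2 peaks of 24 and 19 fragments met the THP-1 peak of highest fold, 27316145 to 27316897 (5.42-fold), which had 14. The single THP-1-only peak of the window, 27329754 to 27330238, had 32 fragments at 3.61-fold and lay 3945 bp from an M2 peak.

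The STAT6 window had the greatest contrast of the 5 windows with peaks in both lists as deposited, although CD209 was ahead of it at the stricter threshold (8.23 at CD209 and 6.81 at STAT6). STAT6 is the transcription factor that carries the IL-4 signal to the genome. On chromosome 12 at 57470000 to 57530000, 8 M2 peaks took up 11.16 kb (18.6% of the window) and 2 THP-1 peaks 1.585 kb (2.64%), which is 7.04 times as much in M2 cells. The ratio stayed between 5.35 and 7.53 under the stricter threshold, equal list lengths, merging and other window bounds. The window narrowed by 10 kb held only 4 M2 peaks and 1 THP-1 peak, with a ratio of 6.88. Both THP-1 peaks of the full window lay wholly inside M2 peaks. The M2 peak at 57472870 to 57473717 had 85 fragments at 12.1-fold, and the THP-1 peak inside it, 57473064 to 57473574, had 84 fragments at 2.83-fold. Their local backgrounds were 2.58 times the lowest in M2 and 16.4 times in THP-1 cells, so nearly equal fragments stood over unequal backgrounds. The widest M2 peak of the window, 57480076 to 57482440, had 158 fragments at 10.1-fold, and the THP-1 peak inside it, 57480618 to 57481691, had 88 at 2.92-fold.

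From 57504262 onward the STAT6 window held 4 M2 peaks and 0 THP-1 peaks, and the nearest THP-1 peak was at least 18929 bp from each of them. The M2-only peak of highest fold, 57512224 to 57513601, was 12.1-fold enriched with 41 fragments at a summit level of 17.8, and lay 29686 bp from a THP-1 peak. The M2 peak with the most fragments of the window, 57504262 to 57506334, had 218, a fold of 9.21 and a -log10 q above that of 98.0% of M2 peaks. This peak was chosen for description after its values were seen. Its summit level was 94.7. THP-1 peaks whose background was 15 to 20 times the lowest, a range that holds both THP-1 peaks of this window, had been called at levels down to 25.5. The M2 level at this peak is above that value. The last peaks, 57522367 to 57523727 and 57524003 to 57524358, had 46 and 20 fragments at levels of 19.99 and 8.69, which like the 17.8 are below 25.5. The THP-1 background at these places is not in the list, and its part in their absence was not tested.

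The CD209 window stood second in contrast in the lists as deposited, a rank that changed with the settings. CD209, or DC-SIGN, is a lectin receptor of IL-4-treated monocytes and dendritic cells. Its window, chromosome 19 at 7790000 to 7830000, had 4.788 kb under 4 M2 peaks and 1.343 kb under 3 THP-1 peaks, 3.57 times as much in M2 cells. The ratio was 8.23 at a -log10 q of at least 10, 6.82 in windows narrowed by 10 kb and 2.64 in windows widened by as much, where TGM2 was ahead of it with 3.41. All 4 M2 peaks were above the median fold of the M2 list and kept a -log10 q of at least 10, while 1 of the 3 THP-1 peaks did. M2 peaks at 7798957 to 7799776 and 7805207 to 7806154 had 49 and 50 fragments at 7.04-fold and 7.69-fold. The first covered parts of a pair of THP-1 peaks, 7798794 to 7799162 and 7799343 to 7799734, with 43 and 65 fragments at 2.53-fold and 2.29-fold. The second met a THP-1 peak at 7805225 to 7805806 with 57 fragments at 3.98-fold. Local background at these sites was 2.58 and 2.38 times the lowest in M2 cells, and 9.28, 15.75 and 7.68 times in THP-1 cells.

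The other CD209 peaks were found in M2 cells only. They lay at 7811392 to 7813054 and 7815681 to 7817037, were 1663 and 1357 bp wide, and had 53 and 56 fragments at 6.52-fold and 12.03-fold. They lay 5585 and 9874 bp from any THP-1 peak. Their summit levels, 23.0 and 24.3, are close to those of the M2 peaks shared with THP-1 in this window, 21.3 and 21.7. They are above 11.9, the lowest level at which THP-1 peaks were called where the background was 5 to 10 times the lowest, a range that holds 2 of the 3 THP-1 peaks of the window. They are below the 25.5 of the range of 15 to 20 times, which holds the other. The THP-1 list gives no background at these places.

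The FCER2 window differed least in its set of sites. FCER2 is the low-affinity IgE receptor CD23 and a gene of B cells and IL-4-treated monocytes. On chromosome 19 at 7730000 to 7780000, 6.27 kb lay under 6 M2 peaks and 3.959 kb under 6 THP-1 peaks. The ratio was 1.58, 1.08 in lists of equal length and 4.61 at a -log10 q of at least 10, where 1 THP-1 peak was left. Every peak of either list overlapped one of the other. All of them lay toward the edges of the window, and between 7746993 and 7770294 neither list had a peak. In a window narrowed by 10 kb 3 M2 and 2 THP-1 peaks were left. Whether these sites belong to FCER2 or to its neighbours was not tested. The peak of highest fold in M2 cells, 7745707 to 7746993, had 85 fragments at 8.36-fold, and the THP-1 peak there, 7745745 to 7746672, had 75 at 3.68-fold, with summits 1 bp apart. At 7738805 to 7740043 the M2 peak had 26 fragments at 7.63-fold, while the THP-1 peak at 7738733 to 7739333 had 43 fragments at 2.89-fold. Local background was 1.03 times the lowest in M2 and 8.07 times in THP-1 cells, and the summit level of M2 was 0.464 of that of THP-1, the lowest ratio of the 13 sites. The widest M2 peak, 7779233 to 7780649, crossed the edge of the window and met a pair of THP-1 peaks of 54 and 50 fragments. The widest THP-1 peak, 7741574 to 7742513, had 35 fragments at 1.801-fold, and the highest THP-1 fold, 4.70, lay at 7771224 to 7772018 over 2 M2 peaks. The CD209 window begins 10 kb further on, and of these neighbours it is the one with M2-only peaks.

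The TGM2 window held the strongest single peak. TGM2 is a transglutaminase that crosslinks proteins and a macrophage IL-4 target in both mouse and human. The window, chromosome 20 at 36740000 to 36820000, had 13.08 kb under 11 M2 peaks and 4.895 kb under 5 THP-1 peaks, 2.67 times as much in M2 cells. The M2 peak at 36770926 to 36774641 was the widest of all window peaks, 3716 bp, with 241 fragments at 18.5-fold, above 98.7% of M2 peaks by fold. The THP-1 peak inside it, 36771830 to 36773697, was also the widest of its list in the windows, 1868 bp, with 114 fragments at 4.30-fold. The summits were 13 bp apart, and the summit level was 104.7 in M2 and 64.6 in THP-1 cells, a ratio of 1.62. A further pair at 36779834 to 36782460 in M2 and 36780023 to 36780711 in THP-1 cells had 95 and 40 fragments at 6.23-fold and 1.82-fold.

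The third shared TGM2 site was an M2 peak at 36795699 to 36798358, with 107 fragments at 9.11-fold, over a pair of THP-1 peaks. These lay at 36796347 to 36796865 and 36797024 to 36797848 and had 17 and 24 fragments at 3.55-fold and 5.54-fold. Here the M2 peak had more fragments, and local background was 4.65 times the lowest in M2 cells, and 2.31 and 1.99 times in THP-1 cells. The 8 M2-only peaks of the window were weak, with 15 to 40 fragments and folds of 2.43 to 6.07. The highest, 36815550 to 36816109, had 20 fragments and lay 8632 bp from a THP-1 peak. In lists of equal length the window had 3 M2 peaks, and the covered ratio was 1.84. THP-1 cells had 1 peak of their own, 36762514 to 36763507, with 20 fragments at 6.29-fold, the highest THP-1 fold of all windows, 4891 bp from an M2 peak.

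The ALOX15 and ARG1 windows were almost without H3K27ac peaks. ALOX15 encodes a lipoxygenase that oxidises polyunsaturated fatty acids and is among the genes most strongly induced by IL-4 in human monocytes. Its window, chromosome 17 at 4520000 to 4560000, held 1 M2 peak, 4549152 to 4549507, with 23 fragments at 4.07-fold. That fold is above 24.3% of M2 peaks, and the peak was lost at a -log10 q of 10 and in lists of equal length. The THP-1 list had no peak inside, and its nearest lay 1048 bp beyond the window, so that widening by 10 kb brought in 2 THP-1 peaks and no further M2 peak. The ARG1 window, chromosome 6 at 131870000 to 131930000, held 0 peaks in either list. ARG1 encodes arginase, which splits arginine into ornithine and urea. The nearest M2 peak was 18412 bp from the window and the nearest THP-1 peak 147720 bp. Of all 60 kb tiles 56.6% held no peak in either list, so an empty stretch of this length is common along the chromosomes. These tiles include stretches without genes, and the share among tiles that hold a gene was not computed. An absent peak does not show that acetylation is absent, only that none was called at this depth.

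At shared sites of the windows the summits lay about as close together as at such sites over the whole lists. At 13 sites a single M2 peak met a single THP-1 peak, with no further partner on either side. The median distance between their summits was 60 bp (1 to 367 bp), against 78 bp over all such pairs. These pairs were chosen for overlapping, which by itself keeps summits close. The M2 peak was wider at 10 of 13 (76.9%), against 69.1% of all pairs. The M2 summit level was higher at 5 of 13, against 45.0% of all pairs, with a median ratio of 0.869 (range 0.464 to 2.89) against 0.934. Without the scaling and the division by the lowest background M2 had more fragments at 9 of 13, against 63.6% of all pairs, and the median ratio was 1.13 against 1.22. Which cell type had the higher summits at shared sites thus depends on those steps. At both TGM2 pairs M2 was higher either way, and at the CD209 pair lower either way. By level M2 was higher at 1 of the 2 STAT6 pairs, 2 of the 5 IL4R pairs and 0 of the 3 FCER2 pairs, and by undivided fragments at 2, 4 and 1 of them.

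**Figure D3:**
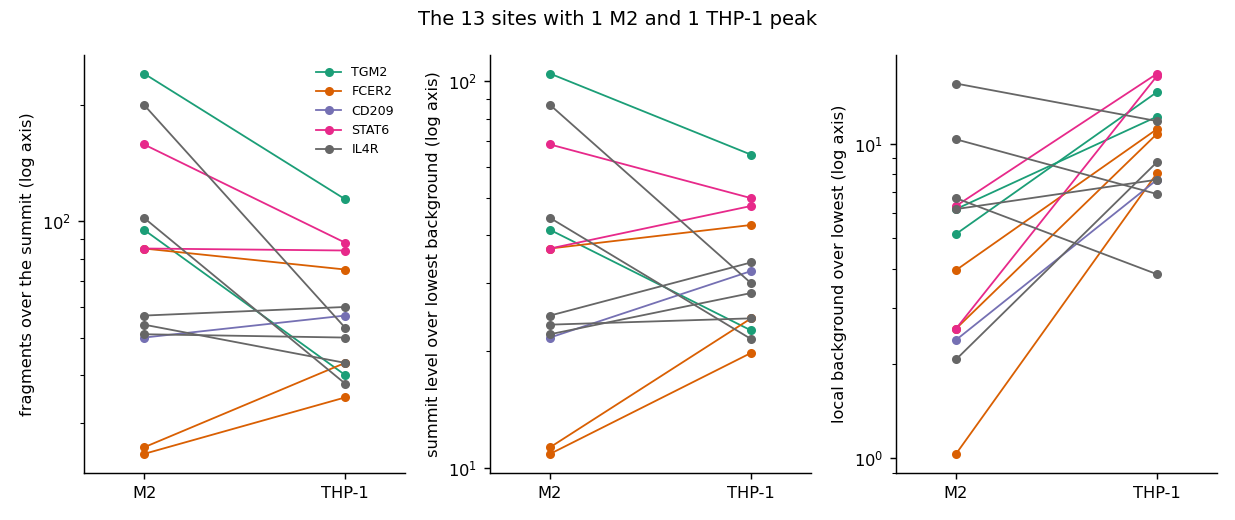
Lines join the M2 and the THP-1 peak of each of the 13 sites, coloured by window, for fragments over the summit, summit level and local background, all on log axes. Fragments are higher in M2 at 9 sites and the summit level at 5, so the direction depends on scaling and division by the lowest background, and local background is higher in THP-1 at 10.

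Local background differed between the cell types as well. It was higher in THP-1 cells at 10 of the 13 sites (76.9%, against 83.2% of all pairs), the exceptions being 3 of the IL4R pairs. The median over window peaks was 2.58 times the lowest in M2 and 8.75 times in THP-1 cells, against 2.38 and 5.04 over the whole lists. At STAT6 the THP-1 median was 16.6, at FCER2 10.9, at CD209 9.28, at IL4R 6.92 and at TGM2 2.31. A higher background lowers the fold of a peak with the same fragments, and its part in the M2 and THP-1 contrasts was not tested. The lowest level at which THP-1 peaks were called depends on their background, so M2-only peaks were set against the range that holds the median THP-1 background of their own window. Above that lowest level were 7 of 8 M2-only peaks at TGM2 (lowest level 6.8), 2 of 2 at CD209 and 3 of 4 at IL4R (11.9), and 3 of 6 at STAT6 (25.5). The TGM2 count rests on a median of widely spread THP-1 backgrounds, 1.325 to 14.6. In the range of 10 to 15 the lowest called level was 19.3, above every TGM2 M2-only peak (highest 17.4). Each lowest level is also an extreme. In the range of 2 to 5 the 5th percentile was 9.06, and the TGM2 M2-only median was 8.69. The 3 at STAT6 include the peaks 426 and 1016 bp from a THP-1 peak. ALOX15 has no THP-1 peak to set a range by, and the THP-1 background at the M2-only places themselves is not in the list. A mixture of cells with and without the mark cannot be told apart from a lower mark in every cell.

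**Figure D4:**
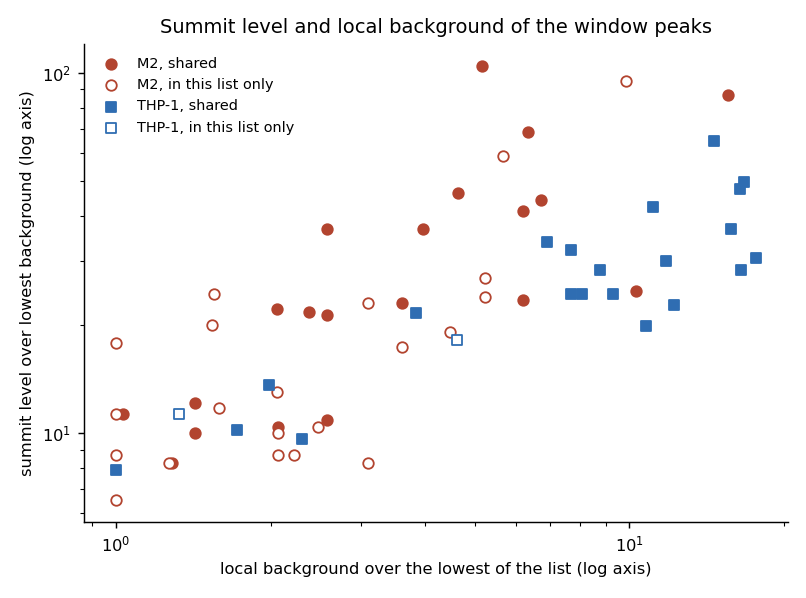
Summit level against local background for the 41 M2 peaks (circles) and 23 THP-1 peaks (squares) of the windows, both over the lowest background of their list, on log axes, open where the other list has no overlapping peak. THP-1 peaks reach a background of 17.7 and M2-only peaks lie mostly at low levels and low background, with the STAT6 window holding the highest of them.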

How the data were processed

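H3K27ac ChIP-seq peak lists of M2 and THP-1 cells, 1 per cell type, were used as deposited. Per the submitters' processing notes, Bowtie2, MACS2 version 2.1.0 and the hg19 build were used, and no settings are given. The fold enrichment (a ratio) and the -log10 p and q of each peak are the authors' deposited values, used for describing and filtering the peaks of each list and for recovering fragments. Start, end and summit position are the other columns the authors deposited. M2 peaks start at a -log10 q of 1.31 and THP-1 peaks at 1.30. The Y chromosome was left out.

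Windows were read from the stated rule, covered length was clipped to them, and peaks sharing at least 1 bp counted as overlapping. Fragments were solved from fold, as pileup plus 1 over background plus 1, and Poisson p, to within 0.01 of a whole number. The M2 pileup was scaled by 0.842. In M2 97.5% of peaks had a single solution and in THP-1 95.3%, and the steps were tested on simulated data. The lowest background was 1.94 in M2 and 1.77 in THP-1. Peaks in windows with at most 5 per list were all described, otherwise the widest, the highest in fold and the highest 1-list peak. The members and lists were chosen with earlier results of these data known. Python 3.11.15, numpy 2.4.6, scipy 1.17.1 and pandas 2.3.3 were used.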

Additional observations from a re-analysis of the deposited data

How the results depend on the processing

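The other settings were a -log10 q of at least 10, lists of equal length, merging of peaks within 1000 bp, an overlap of at least 50% and windows widened or narrowed by 10 kb. The stricter q left 28 M2 and 9 THP-1 window peaks, with a covered ratio of 4.22 and an M2-only share of 75.0% (interval 55.1 to 89.3), against 74.2% of all M2 peaks. The whole M2 list kept 34097 peaks there. The covered ratio of the whole lists was computed as deposited only (2.19). Whether the ratios of the other settings are particular to the windows was therefore not tested. With equal lengths there were 23 M2 peaks, and the IL4R covered ratio was 0.989. The M2-only share fell to 39.1% (interval 19.7 to 61.5) and the THP-1-only share rose to 26.1% (10.2 to 48.4). With an overlap of at least 50% the M2-only share was 68.3%, against 74.5% of all. Equal lengths shorten only the M2 list, so the THP-1-only share could not fall there. Asking for more overlap can likewise only raise the shares found in 1 list. The cause of the other shifts was not tested. Not scaled or divided by the lowest background, the median ratio of M2 to THP-1 fragments was 1.13 in place of 0.869, and M2 was higher at 9 of 13 sites in place of 5. The covered ratio over all windows was 2.02 to 4.22 across the settings, and those of STAT6, CD209, TGM2 and FCER2 stayed above 1 in each, while their order changed. No paired analysis was possible because each cell type has 1 library. Depth limits the weak peaks most, since the lowest had 14 fragments. The lists do not tell what lies below their threshold.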
